A study of Mus musculus with 6 samples.

Results

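Nodal, its relatives of the activin branch and their secreted inhibitors were measured in mouse embryonic stem (ES) cells that had taken up a plasmid for an shRNA (short hairpin RNA) to Chd4, called shChd4 cells, and in ES cells given a control plasmid. The set held 9 genes by name: the ligands Nodal, Gdf3, Inhba and Inhbb, the co-receptor Tdgf1, and the inhibitors Lefty1, Lefty2, Fst and Cer1. A gene was taken in through every probe that carries its symbol in the platform annotation. This gave 10 probes for 8 genes, out of 45281 probes and 19057 named genes in the series; Inhbb had no match and was not analysed here. Of the 8 genes, 7 were among the 9808 genes tested, and each of the 7 was detected on all 6 arrays. Neither the choice of probes nor the detection filter therefore fixed their direction.

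The experiment held 3 shChd4 arrays and 3 control arrays. The shRNA plasmid (pHYPER) was electroporated, puromycin was added 24 h later and kept on for 48 h, and the cells were then collected. Both groups grew in LIF and 15% serum over feeder fibroblasts stopped in division by mitomycin C. The labels do not say what the control plasmid held, whether the shChd4 samples, which carry different id codes, share 1 hairpin, whether feeders were removed, or whether each array is a culture of its own. The p-values therefore cover the spread among these arrays alone, part or all of which may be technical.

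As background, Nodal and the activins are ligands of the TGF-beta superfamily. They bind type I and type II activin receptors, which phosphorylate SMAD2 and SMAD3; these enter the nucleus with SMAD4 and act with partners such as FOXH1. Nodal and Gdf3 also need an EGF-CFC co-receptor such as Cripto, the product of Tdgf1, whereas activin does not. Lefty1 and Lefty2 are themselves targets of the pathway and block Nodal outside the cell, follistatin (Fst) binds activin, and Cerberus-like (Cer1) binds Nodal. In mouse ES cells Nodal, its co-receptor and both Lefty genes are normally active, and the pathway later drives mesoderm and endoderm formation in the embryo.

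Chd4, the target of the hairpin and the ATPase of the NuRD remodelling complex, was lower on every shChd4 array by its brightest probe. Its log2 intensity averaged 8.10 ± 0.21 in shChd4 cells and 10.14 ± 0.02 in control cells (SD, n = 3 each), a log2 fold change of -2.04 (SE 0.16; adjusted p = 6.33e-06, limma). Other Chd4 probes detected on all 6 arrays differed by -1.86 and -1.26. A probe near background, detected on 2 shChd4 arrays and 0 control arrays, differed by 0.34. The pluripotent cell type of the label was checked on 11 marker genes, all detected on every array. The 3 shChd4 arrays lay on 1 BeadChip and the 3 control arrays on another, by the titles, so an effect of the chip cannot be told apart from that of the hairpin. Of all genes tested, 38.1% passed at an adjusted p under 0.05, made up of 19.9% higher and 18.2% lower in shChd4 cells, with a median log2 fold change of -0.05. Log2 intensities below are background-corrected and quantile-normalised, and each fold change is shChd4 minus control. A probe's level depends on the probe, so levels are compared between arrays and not between genes.

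Of the 7 genes tested, Inhba and Fst rose, Gdf3 and Tdgf1 fell, and Nodal, Lefty1 and Lefty2 did not pass. Counted against the share of all genes, 2 of 7 were higher where 19.9% of all genes were, and 2 of 7 lower where 18.2% were. The groups did not overlap for 3 of the 7 with shChd4 above (Nodal, Inhba and Fst), beside 25% of all genes, and for 2 with shChd4 below, beside 25.3%. The median log2 fold change of the 7 was 0.31, beside -0.05 over all genes tested. The changes were spread from -1.71 to 3.97, so the genes of this pathway did not move one way.

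**Figure D1:**
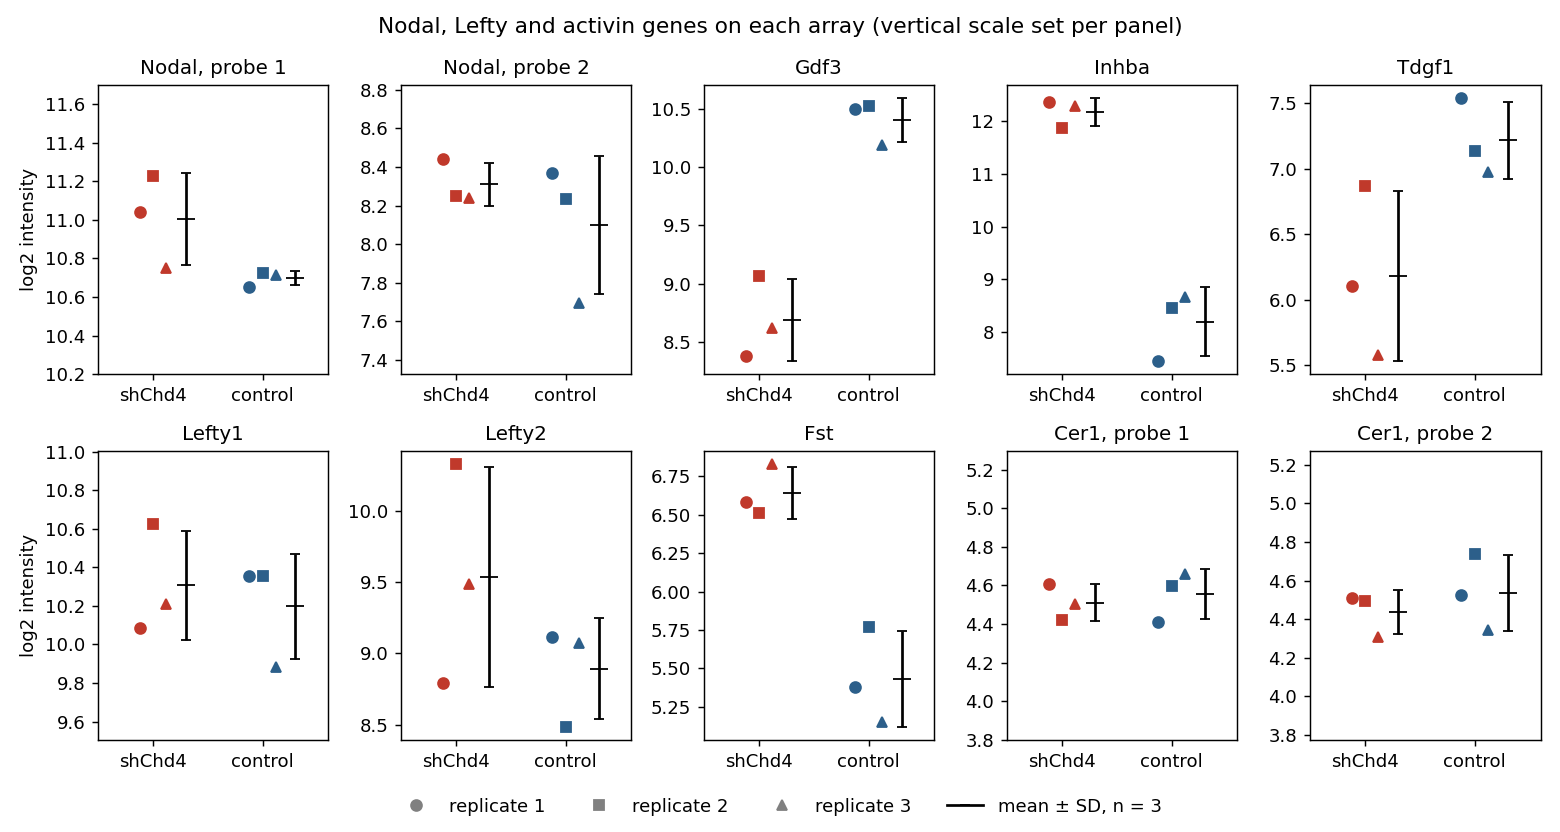
Log2 intensity of each probe of the 8 matched genes on the 3 shChd4 arrays (red) and the 3 control arrays (blue), one panel per probe with its own vertical scale; symbols mark the replicate and bars the mean ± SD (n = 3). The groups are separate by 3.19 for Inhba and by 1.12 for Gdf3 on the log2 scale, and overlap for Lefty1, Lefty2 and both Cer1 probes.

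Among the ligands, Inhba changed most. It encodes the beta A subunit, 2 of which make activin A. On the scanner its intensity was 5171, 3592 and 4460.2 on the shChd4 arrays, against 281, 395 and 518 on the control arrays. All 3 shChd4 values were several times any control value. After correction the log2 intensity averaged 12.17 ± 0.27 in shChd4 cells and 8.20 ± 0.65 in control cells (SD, n = 3 each). The log2 fold change was 3.97 (SE 0.28; adjusted p = 3.82e-06, limma), or 15.7-fold, with a 95% interval of 10.2-fold to 24.2-fold. Only 13 of the 9808 genes tested had a larger rise. The change stayed between 3.53 and 4.19 in all 16 alternative settings tried, and its adjusted p was at most 0.000516.

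The promoter window of Inhba is shown because this gene had the largest change of the set. It runs from 250 bases before to 50 bases after the RefSeq start, at chr13:16011601-16011900 on the plus strand (GRCm38.p6). Capitals mark matches to 5 motifs searched on both strands: the SMAD box CAGAC, the FOXH1 motif AATNCACA, the AP-1 motif TGANTCA, the POU octamer ATGCAAAT and the TATA box TATAAA.
Inhba: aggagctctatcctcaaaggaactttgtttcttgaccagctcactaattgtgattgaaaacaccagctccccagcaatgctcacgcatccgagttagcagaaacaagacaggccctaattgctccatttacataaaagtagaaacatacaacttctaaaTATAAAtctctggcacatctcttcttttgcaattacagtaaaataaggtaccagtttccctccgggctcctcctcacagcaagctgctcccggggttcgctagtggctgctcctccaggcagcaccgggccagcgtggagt
The only match was a TATA box 91 bases before the start, a motif held by 13.6% of the 32851 promoter windows of the same length in the RefSeq table. A match is a run of letters and not a shown binding site.

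Gdf3, a ligand that signals through Cripto and the activin receptors and that is expressed in pluripotent cells, fell. Its scanner intensity was 457, 614 and 472 on the shChd4 arrays, against 1697, 1409 and 1331 on the control arrays. Every shChd4 array lay below every control array. The corrected log2 intensity averaged 8.69 ± 0.35 in shChd4 cells and 10.40 ± 0.19 in control cells (SD, n = 3 each). That is a log2 fold change of -1.71 (SE 0.20; adjusted p = 7.66e-05, limma), or 30.5% of the control level. The 95% interval of the log2 fold change was -2.15 to -1.28. Of all genes tested, 40 fell further. Over the 16 alternatives the change ranged from -1.91 to -1.48 and kept an adjusted p of at most 0.0015.

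Nodal itself did not pass. Its brighter probe read 11.04, 11.23 and 10.75 on the shChd4 arrays and 10.65, 10.72 and 10.72 on the control arrays. The lowest shChd4 array lay above the highest control array by only 0.03, and the groups were likewise free of overlap in 50.3% of all genes tested. The log2 fold change was 0.31 (SE 0.16; adjusted p = 0.166, limma), with a 95% interval of -0.05 to 0.67. On a linear scale it runs from 0.963 to 1.59 times the control level, which leaves out a fall of the size seen in Gdf3. The dimmer Nodal probe read 8.44, 8.25 and 8.24 on the shChd4 arrays and 8.37, 8.23 and 7.70 on the control arrays. These groups overlapped, and with each probe fitted on its own its log2 fold change was 0.21 (SE 0.19; adjusted p = 0.432, limma).

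The Nodal promoter window is printed beside that of Inhba for contrast, as Inhba passed the test and Nodal did not. It lies at chr10:61417722-61418021 on the plus strand (GRCm38.p6), over the same distances from the start.
Nodal: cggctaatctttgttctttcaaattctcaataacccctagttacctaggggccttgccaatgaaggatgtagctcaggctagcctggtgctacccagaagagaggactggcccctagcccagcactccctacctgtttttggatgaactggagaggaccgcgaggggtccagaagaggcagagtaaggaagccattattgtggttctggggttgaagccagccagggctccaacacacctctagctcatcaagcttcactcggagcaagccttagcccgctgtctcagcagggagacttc
None of the 5 motifs was found there, which says only that those letters are not in this window. The share of all promoter windows with a match was 49.6% for the SMAD box, 3.6% for FOXH1, 7.81% for AP-1 and 1.74% for the POU octamer.

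Tdgf1, the co-receptor gene, fell. Its scanner intensity was 175, 211 and 140.4 on the shChd4 arrays, against 293, 209 and 218 on the control arrays, close to background throughout. Corrected log2 intensities were 6.10, 6.87 and 5.57 on the shChd4 arrays and 7.54, 7.14 and 6.97 on the control arrays. The groups did not overlap, but the highest shChd4 array came within 0.11 of the lowest control array. The log2 fold change was -1.04 (SE 0.29; adjusted p = 0.0145, limma), or 48.7% of the control level. The call was lost without control replicate 1 (-0.87; adjusted p = 0.0519), shChd4 replicate 1 (0.0568) or shChd4 replicate 3 (-0.74; 0.0541), and with no detection filter (0.0711), out of a range of 0.00198 to 0.0711 over all 16 alternatives. Without background correction the change was -0.49 (adjusted p = 0.0262).

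The promoter window of Tdgf1 is shown because it held the 1 SMAD box found among the tested genes with a matched promoter. It lies at chr9:110946109-110946408 on the minus strand (GRCm38.p6).
Tdgf1: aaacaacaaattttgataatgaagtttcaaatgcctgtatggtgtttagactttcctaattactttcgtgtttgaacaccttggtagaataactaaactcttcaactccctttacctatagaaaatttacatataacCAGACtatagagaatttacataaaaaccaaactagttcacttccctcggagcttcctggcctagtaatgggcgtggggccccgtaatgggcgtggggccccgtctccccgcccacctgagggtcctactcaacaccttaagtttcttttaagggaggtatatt
The box starts 113 bases before the RefSeq start, and 49.6% of all windows hold at least 1.

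Of the secreted inhibitors, follistatin rose and the Lefty genes did not pass. Fst had scanner intensities of 206, 187 and 207 on the shChd4 arrays, against 139, 137 and 127 on the control arrays. Its corrected log2 intensity averaged 6.64 ± 0.17 in shChd4 cells and 5.43 ± 0.31 in control cells (SD, n = 3 each), and the groups lay 0.74 apart. The log2 fold change was 1.21 (SE 0.19; adjusted p = 0.000564, limma), or 2.31-fold. Because the probe sits near background, the size depended on that step: it was 0.45 without background correction (adjusted p = 0.00315), 0.50 with the authors' values (0.00243) and 0.79 with an offset of 50 (0.000576). The call was kept in all 16 alternatives (adjusted p 5.38e-05 to 0.00405).

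Lefty1 read 10.09, 10.62 and 10.21 on the shChd4 arrays and 10.35, 10.35 and 9.88 on the control arrays. The ranges overlapped in part, with 1 shChd4 array above all control arrays and 1 control array below all shChd4 arrays. Its log2 fold change was 0.11 (SE 0.20; adjusted p = 0.697, limma), with a 95% interval of -0.32 to 0.54, and its sign turned without control replicate 3 (-0.045) or shChd4 replicate 2 (-0.047).

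Lefty2 varied most between the shChd4 arrays. It read 8.79, 10.33 and 9.49 on them, against 9.12, 8.49 and 9.07 on the control arrays. One shChd4 array lay inside the control range and the other two above it. The log2 fold change was 0.64 (SE 0.33; adjusted p = 0.145, limma), with a 95% interval of -0.08 to 1.36. It was 1.02 without shChd4 replicate 1, where it passed (adjusted p = 0.0272), and 0.25 without shChd4 replicate 2 (adjusted p = 0.50), the ends of its range over the alternatives. Lefty1 and Lefty2 are close paralogs, and how far each probe separates them was not tested.

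Cer1 was not detected on any of the 6 arrays by either probe. Its brighter probe averaged 4.51 ± 0.10 in shChd4 cells and 4.56 ± 0.13 in control cells (SD, n = 3 each), below the lowest detected signals, which ranged from 4.86 to 4.90 on the shChd4 arrays and from 4.99 to 5.03 on the control arrays. No fold change is given for it. Cer1 marks the anterior visceral endoderm in the embryo.

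**Figure D2:**
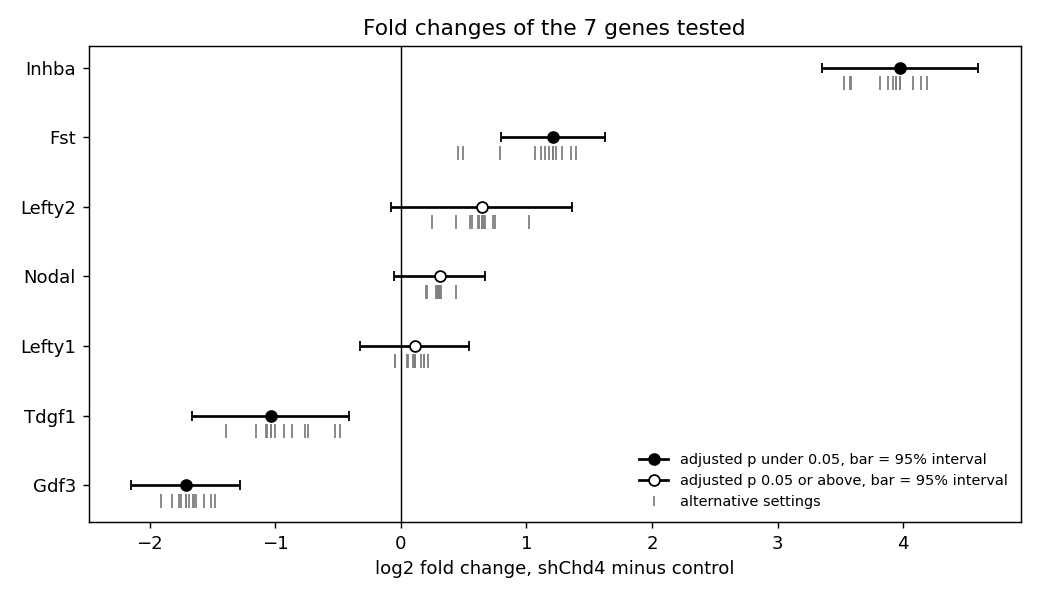
Log2 fold change (shChd4 minus control) of the 7 genes tested, with the 95% interval as a bar; filled circles passed at an adjusted p under 0.05, and grey ticks give the 16 alternative settings. Inhba (3.97) and Fst (1.21) lie to the right, Gdf3 (-1.71) and Tdgf1 (-1.04) to the left, and the intervals of Nodal, Lefty1 and Lefty2 include 0.

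The arrays of the shChd4 group differed among themselves. On shChd4 replicate 2, 5 of the 7 genes had their highest shChd4 value (Nodal, Gdf3, Tdgf1, Lefty1 and Lefty2), and the other two, Inhba and Fst, had their lowest. Over all genes tested, the same array held the highest shChd4 value of 35.7% and the lowest of 33.2%. Levels of marker genes differed between the same arrays. The mean of the 11 fibroblast markers detected on all 6 arrays was 9.85, 9.46 and 9.88 on shChd4 replicates 1, 2 and 3. On control replicates 1, 2 and 3 it was 6.24, 6.83 and 6.87. It was thus lowest on replicate 2 among the shChd4 arrays, as Inhba was. Among the control arrays, replicate 1 held the lowest value of 39.2% of all genes tested. Inhba was lowest on it too, at 7.46 against 8.47 and 8.68, and so was the fibroblast mean. Fst did not share that order: it read 5.37, 5.77 and 5.15 on control replicates 1, 2 and 3, lowest on replicate 3.

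Of 20 fibroblast markers listed, 16 were tested, 5 of them detected on fewer than all 6 arrays, so that they entered the test through the shChd4 arrays in whole or in part. Of the 11 detected on all 6 arrays, 10 rose and 0 fell, with a median log2 fold change of 2.90. The summed linear level of the 16, background-corrected, ranged from 11100 to 15200 on the shChd4 arrays and from 1270 to 2305 on the control arrays. This sum includes the 5 that entered through the shChd4 arrays, so the detection filter has a part in the difference. Dcn and Mgp were detected in both groups, Mgp close to background on the control arrays, at 5.08, 5.42 and 5.14. The fibroblast markers Col1a1, Lum, Pdgfrb, Col3a1 and S100a4 were detected on shChd4 arrays only, and Fap and Postn were not detected on any array. Inhba had a log2 fold change that exceeded that of 7 of the 11 markers, and that of Fst exceeded 2. Activin A and follistatin are also made by fibroblasts, and the part of feeder RNA in the rise of Inhba and Fst was not tested. In bulk RNA, more cells of a type and more RNA per cell cannot be told apart.

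Pluripotent cell markers fell as well. Of 12 such markers listed, 11 were tested, of which 7 fell and 0 rose, with a median log2 fold change of -0.84 and a range from -1.52 (Fgf4) to -0.03 (Dppa5a). Their summed linear level ranged from 47760 to 53830 on the shChd4 arrays and from 61420 to 64510 on the control arrays. Dppa5a, with a mean log2 intensity of 14.82 in shChd4 cells and 14.85 in control cells, weighs most in this sum. In log2 fold change Gdf3 lay below all 11, Tdgf1 lay among them with 4 further down, and Nodal, Lefty1 and Lefty2 lay above all 11. The mean of the markers was 10.40, 10.77 and 10.38 on shChd4 replicates 1, 2 and 3, against 11.34, 11.34 and 11.31 on the control arrays, so it too was highest on replicate 2 within the shChd4 group. The part of a lower share of ES cell RNA in the falls of Gdf3 and Tdgf1 was not tested.

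**Figure D3:**
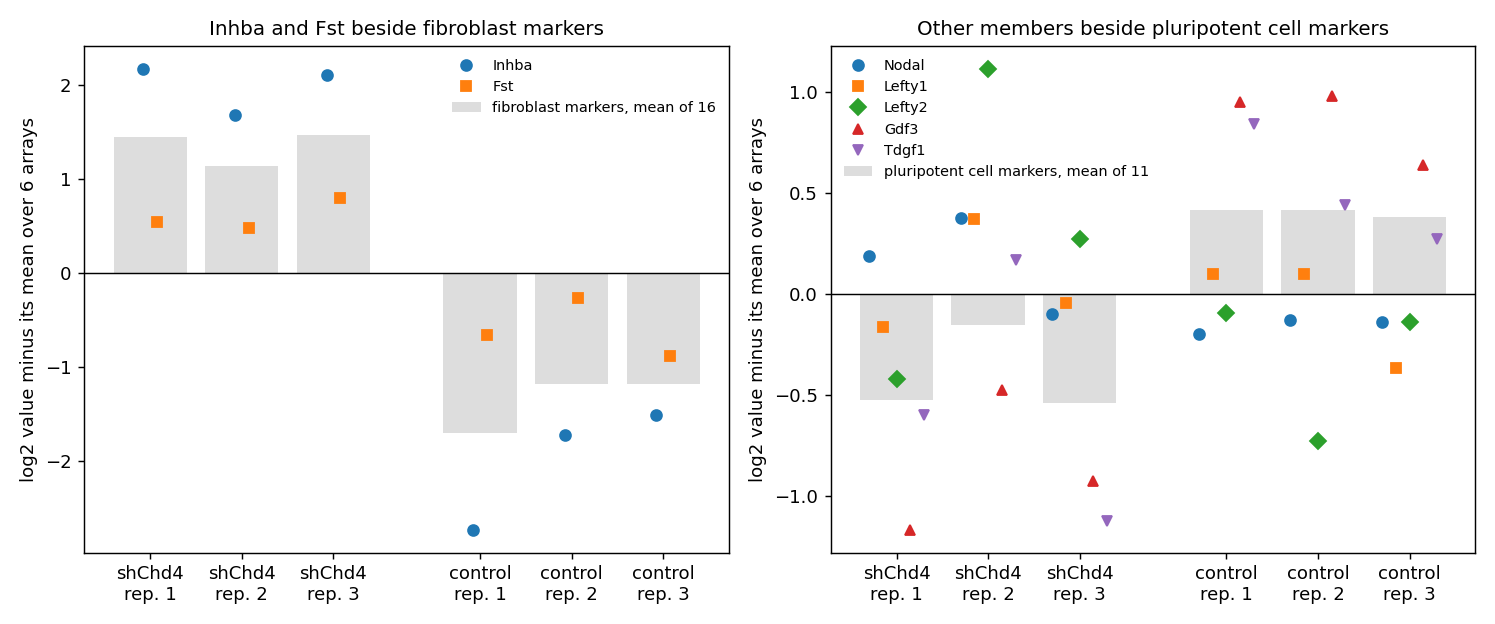
Log2 value of each gene minus its own mean over the 6 arrays, by array, with grey bars for the mean of 16 fibroblast markers (left) or of 11 pluripotent cell markers (right) treated in the same way. Of the 16, 5 were detected on fewer than all 6 arrays and entered the test through the shChd4 arrays in whole or in part. Inhba and Fst lie above 0 on all shChd4 arrays with the fibroblast markers; Gdf3 is low on all 3, while Nodal and Lefty2 peak on shChd4 replicate 2.

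The genes whose values ran closest to those of Inhba were found by a measure of likeness, the root mean square difference of log2 values centred on each gene's mean, over the 6 arrays. It was smallest for Bgn, which encodes the matrix proteoglycan biglycan (0.11), followed by Serpinf1 (0.17), the tenascin gene Tnc (0.19), Ecm1 (0.20) and the MHC class I gene H2-D1 (0.23). Bgn read 13.71, 13.43 and 13.79 on the shChd4 arrays and 8.85, 9.90 and 10.37 on the control arrays, a difference of 3.93, beside 3.97 for Inhba. For Gdf3 the nearest were Soga3 (0.11), the histone gene H3c3 (0.12), Itpka (0.14), Sall3 (0.14) and Bola1 (0.15). Sall3, a spalt-like transcription factor gene, changed by -1.74, with its highest shChd4 value on replicate 2, as Gdf3 had. All of these genes were chosen for likeness on the same 6 arrays, so like changes and array orders follow from the choice.

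Of 56 other genes of the pathway, 51 had a named probe and 33 were tested. Of the 33, 10 rose and 6 fell, or 48.5% beside 38.1% of all genes tested, with a median log2 fold change of 0.20. With only genes detected on all 6 arrays, 5 rose and 6 fell. Tgfb2, Tgfb3, Tgfbr2, Tgfbr3, Pmepa1 and Gata6 leave the 33 in that setting, and all of them but Tgfb2 had been counted as rises. In that setting 39.5% of all genes tested passed, and 45.2% of those calls were rises. The larger count of rises, and the share of 48.5%, thus include genes that entered the test through shChd4 arrays alone or in part. The fibroblast markers rose and the pluripotent cell markers fell on the same arrays. The part of feeder RNA, or of a lower share of ES cell RNA, in the changes of the pathway genes below was not tested.

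**Figure D4:**
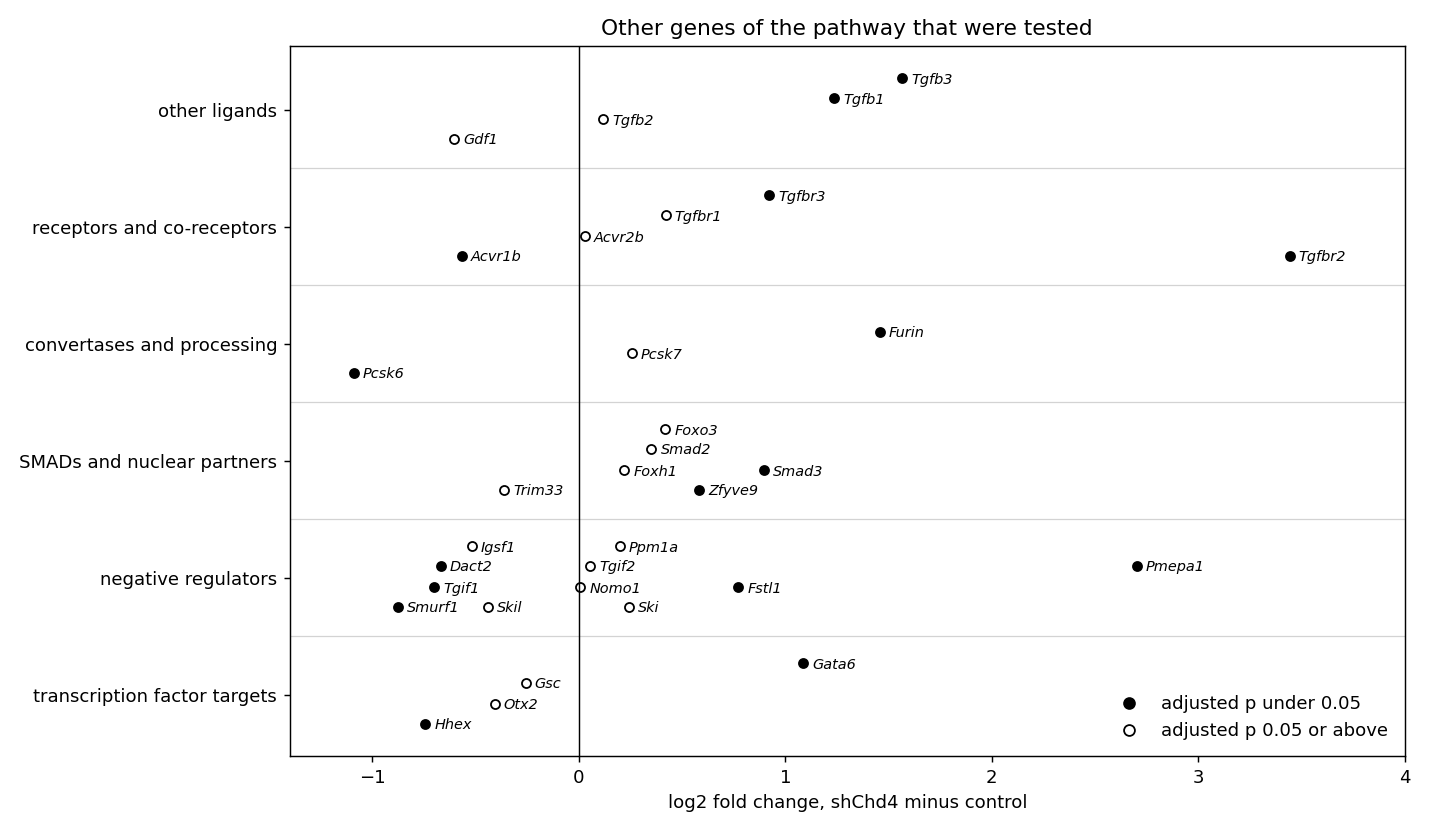
Log2 fold change (shChd4 minus control) of the 33 other pathway genes tested, by role; filled circles passed at an adjusted p under 0.05. Tgfbr2 (3.44) and Pmepa1 (2.70) lie furthest right and Pcsk6 (-1.09) furthest left.

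Other ligands of the branch were mixed. Of 9 listed, 4 were tested and 2 rose, where 19.9% of all genes tested rose. Tgfb1 rose by 1.24 (SE 0.20; adjusted p = 0.000765, limma), with log2 intensities of 6.81, 7.34 and 7.04 on the shChd4 arrays against 5.62, 5.67 and 6.18 on the control arrays. It was 0.55 without background correction. Tgfb3 was detected on 3 shChd4 arrays and 0 control arrays and was at least 2.33-fold higher in the background-corrected values (adjusted p = 7.67e-05, limma). Its log2 difference was 0.49 when no background was corrected and 0.55 in the authors' values, so the bound does not hold for those. Gdf1, which forms heterodimers with Nodal in the embryo, changed by -0.61 and did not pass (adjusted p = 0.0688, limma; 0.0263 to 0.242 over its alternatives), and Tgfb2 changed by 0.12 (0.755). The inhibin genes Inha, Inhbc and Inhbe were not tested, since none was detected on 3 arrays.

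Of 5 receptor genes tested, 2 rose and 1 fell, where 19.9% of all genes tested rose and 18.2% fell. Neither gene that rose was detected on all 3 control arrays, Tgfbr2 on 1 and Tgfbr3 on 2. Tgfbr2, the type II receptor for TGF-beta and not for activin, read 8.77, 8.34 and 8.61 on the shChd4 arrays against 4.78, 4.86 and 5.75 on the control arrays. It rose by 3.44 (SE 0.25; adjusted p = 4.00e-06, limma), although it was detected on only 1 control array, and by 1.76 without background correction; 3 other Tgfbr2 probes, detected on no more than 1 array each, differed by -0.10 to 0.13. The co-receptor gene Tgfbr3 rose by 0.92 (adjusted p = 0.0124, limma; lost with no detection filter at 0.0541, the highest over its alternatives, with 0.00186 the lowest), and by 0.33 without background correction. Of the activin receptor genes, Acvr1b, the type I receptor of Nodal and activin, fell by 0.57 on the log2 scale (adjusted p = 0.0323, limma), a call lost in 9 of 16 alternatives (0.0127 to 0.114), with a change of -0.18 without background correction. Acvr2b, a type II receptor, changed by 0.03 (adjusted p = 0.921, limma), with both groups near 10.6. Acvr1c, Acvr2a and the second EGF-CFC gene Cfc1 were not detected on any array.

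The 2 proprotein convertases that cleave the Nodal precursor moved in opposite directions. Furin rose by 1.46 (SE 0.15; adjusted p = 3.45e-05, limma), with 9.41, 9.54 and 9.51 on the shChd4 arrays against 7.97, 8.18 and 7.95 on the control arrays. Pcsk6, also known as Pace4, fell by 1.09 on the log2 scale (SE 0.20; adjusted p = 0.00162, limma), with 6.54, 7.02 and 6.53 on the shChd4 arrays against 7.47, 7.86 and 8.04 on the control arrays. In both genes the groups did not overlap, and without background correction the change of Pcsk6 was -0.63. Pcsk7 changed by 0.26 (adjusted p = 0.238, limma).

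Of the SMADs and their partners, 2 of 6 tested rose and 0 fell, where 19.9% of all genes tested rose and 18.2% fell. Smad3 rose by 0.89 (SE 0.17; adjusted p = 0.00204, limma), all 3 shChd4 arrays lay above all control arrays, and its second probe differed by 0.74. Smad2 changed by 0.35 and Foxh1, the nuclear partner of Nodal signalling, by 0.22, and neither passed (adjusted p = 0.104, limma and 0.519). Zfyve9, which encodes the SMAD anchor SARA, rose by 0.58 (adjusted p = 0.0411, limma), a call lost in 8 of 16 alternatives (0.0147 to 0.137), with a change of 0.21 without background correction. Foxo3 changed by 0.42 (adjusted p = 0.0714, limma; 0.0297 to 0.226) and Trim33 by -0.36 (0.0802; 0.0391 to 0.238). A dimmer Trim33 probe, detected on all 6 arrays, was lower by its own test, at -0.69 (adjusted p = 0.00569, limma with each probe fitted on its own), and 2 further tested probes differed by -0.53 and -0.37.

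Genes listed as negative regulators moved both ways, with 2 rises and 3 falls among 11 tested. Of all genes tested, 19.9% rose and 18.2% fell. Pmepa1, a target of TGF-beta signalling whose product holds back SMAD2 and SMAD3, was detected on 3 shChd4 arrays and 0 control arrays. It was at least 5.23-fold higher on its brighter probe (adjusted p = 2.28e-06, limma) and at least 1.71-fold higher on the other, both in the background-corrected values. When no background was corrected the brighter probe differed by 1.06, and in the authors' values by 1.16, so that the bound of 5.23-fold does not hold for those. Fstl1 rose by 0.77 (adjusted p = 0.00392, limma). It is counted here by its place in the list, and whether it holds back Nodal or activin was not tested. Smurf1, a ubiquitin ligase of the pathway, fell by 0.87 on the log2 scale (adjusted p = 0.00428, limma; lost without control replicate 2, where another probe was the brightest, at -0.54 and 0.0789; -0.34 without background correction), and other Smurf1 probes differed by -0.44 and -0.35. The corepressor gene Tgif1 fell by 0.70 (adjusted p = 0.0132, limma; lost without control replicate 1 at 0.0554), with -0.89 and -0.56 on its other probes. Dact2 was lower as well, with a log2 fold change of -0.67 (adjusted p = 0.0179, limma). Its values in the alternative settings are not given here. Smad7, a feedback inhibitor, was not detected on any array.

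Transcription factor genes that Nodal and activin switch on in the early embryo were mostly undetected. Of 11 listed, 9 had a named probe and 4 were tested. Eomes, Mixl1, Foxa2, Lhx1 and Sox17 were not detected on any array of either group. Gata6, an endoderm factor, rose by 1.09 (SE 0.19; adjusted p = 0.0013, limma) and was detected on 2 control arrays; the change was 0.34 without background correction, and a second Gata6 probe near background differed by 0.03. Of 12 primitive or extraembryonic endoderm markers listed, 6 were not detected on any array and 5 were tested, of which 3 were detected on all 6 arrays. Of these 3, Amn rose by 1.87 (adjusted p = 0.00039, limma) and Dab2 by 1.37 (adjusted p = 0.000938, limma; 0.57 without background correction), and Hnf4a changed by -0.0012 (adjusted p = 0.997, limma). The mean log2 value of these 3 was 7.02, 7.48 and 6.69 on the shChd4 arrays, against 5.78, 6.19 and 5.98 on the control arrays. The other 2 tested, Gata6 and Sox7, entered the test through the shChd4 arrays in whole or in part, so no level of all 5 is given. The part of feeder RNA in the rises of Gata6, Amn and Dab2 was not tested. Hhex fell by 0.74 on the log2 scale (SE 0.16; adjusted p = 0.00355, limma), with 6.46, 6.12 and 6.14 on the shChd4 arrays against 6.98, 6.98 and 6.99 on the control arrays. Its change was -0.35 without background correction. Otx2 changed by -0.41 (adjusted p = 0.332, limma) and Gsc, a target in the primitive streak, by -0.26 (0.380).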

How the data were processed

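Total RNA was amplified into biotin-labelled cRNA and read on Illumina mouse BeadChips, per the labels' protocols. Per the file headers, the scanner table deposited by the authors gives every probe an intensity (linear) and a detection p-value on every array; GenomeStudio is named in the submitters' processing notes. The value table of the deposited series matrix gives further intensity values by the authors, which follow the scanner values of the same array in rank (Spearman 1) and have medians from 115.16 to 115.19; they are linear, quantile-normalised and not background-subtracted, by a method not given in the sources used here, and served as an alternative.

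Scanner values went through neqc (limma 3.58.1, R 4.3.3): normexp correction with the background inferred from detection p-values, an offset of 16, quantile normalisation and log2. Of 45281 probes, 34885 carry 1 gene symbol. Each gene was taken by its brightest probe, kept where detected at p under 0.05 on at least 3 arrays. Groups were compared with limma (lmFit, eBayes) and Benjamini-Hochberg adjustment over 9808 genes, at 0.05. A gene detected on no array of 1 group is given as a lower bound ("at least"), against the lowest detected signal of each array of that group or the probe's own if higher. Arrays give no read depth, and 3 arrays per group limit the precision. The labels number no replicates; numbers follow accession order and are names only. Promoter sequences came from RefSeq (GRCm38.p6), for 5 of the 9 genes. The steps were tested on simulated arrays drawn around the control arrays, with a small set of genes changed in both directions. Changes in as large a share of genes as here, or an effect of the chip, were not simulated.

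The genes, lists and tests were chosen with earlier results of these data known. All 9 genes, Chd4, up to 4 genes of each pathway list with the smallest p, and the 5 profiles nearest to the largest rise and fall were named. Smad2, Foxh1, Acvr2b, Dact2, the undetected genes and the markers were named after their values were seen. Alternatives were 10 other settings and leaving out each of the 6 arrays.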

Additional observations from a re-analysis of the deposited data

How the results depend on the processing

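Inhba, Fst and Gdf3 kept their direction and their call in all 16 alternatives. Over the 7 genes and 16 alternatives, 105 of 112 values kept both direction and side of the threshold; the other 7 were the Tdgf1, Lefty1 and Lefty2 values given with those genes. The count of genes that fell was 1 with no detection filter, where more genes share the adjustment, and 1 to 2 when each array was left out. Over the arrays left out in turn, Lefty1 ranged from -0.047 to 0.22 and Tgfb2 from -0.066 to 0.44, and the signs of both turned. Of the other pathway genes, 5 rose with only genes detected on all 6 arrays, against 10, and 10 probes fell when each probe was tested on its own, against 6 genes; by that setting 2701 probes were lower over the whole table, against 1788 genes, because several probes of a gene count. Without background correction the log2 fold change was over 1.5 times smaller for 14 of 22 genes that passed, with values given beside each. The 22 were 4 of the set, Chd4, the pathway genes named for the smallest p, Amn and Dab2. The values of Inhba, Gdf3 and Chd4 moved by less. No paired analysis was possible because the labels carry no replicate numbers.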
